A study of Solanum lycopersicum with 4 samples.

Results

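A set of 32 genes was graded upward in the libraries of the tomato tmf mutant: the first mutant pool of meristems held the highest level, the second a lower one, and both wild-type pools the lowest. The genes were selected on the deposited expression values themselves. After 1 was added to every value, mutant replicate 1 had to be at least 2 times mutant replicate 2, mutant replicate 2 at least 2 times the higher wild-type library, and the mean of the mutant libraries at least 10. Of the 34727 listed genes, 41 met these thresholds, which is 0.231% of the 17769 genes with a mutant mean of at least 10. Of those 41, 3 were set aside because neither wild-type value exceeded 1 while both mutant values were at least 8, and 6 well-studied floral regulators were set aside by identifier, which left the 32. The order of the libraries and the separation of the genotypes are therefore fixed by the selection, and the values of these genes in the 4 libraries are given as a description. The comparison of genotypes over the whole table, given last, used the same values and is not evidence about these genes.

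The libraries came from shoot meristems of tomato (Solanum lycopersicum) plants mutated in TERMINATING FLOWER (TMF) and of wild-type plants, dissected 8 days after germination at the late vegetative stage and fixed in acetone. Each genotype had 2 biological replicates, and every replicate was RNA from meristems pooled over several plants, so that neither the spread between plants nor a mixture of stages within a pool can be read from a library. The sources used here give neither the mutant allele nor the cultivar. The recovered depth was 19674165 reads for mutant replicate 1 and 17540331 for mutant replicate 2, against 28310492 for wild-type replicate 1 and 22977411 for wild-type replicate 2. Values are normalised reads, scaled by the authors to a total of 10000000 in each library. For counting error only, 0 reads still leave room for 1.52 and 1.71 in the pools of the mutant and for 1.06 and 1.31 in those of the wild type (the limit of 3 reads). Where a gene has a pair of values per genotype, replicate 1 comes before replicate 2. TMF itself separated the libraries as labelled, at 6.1 and 6.27 in mutant pools, against 1238 and 2224 in wild-type pools.

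TMF is a nuclear protein of the ALOG family, and tomato plants that lack it flower early and can end their main shoot in a single flower. As a tomato meristem matures toward flowering it passes from a vegetative to a transition and then a floral state, and genes of floral identity are switched on in sequence. MADS-box transcription factors act in that sequence in combinations, with the SEPALLATA and AGL6 clades as partners of the proteins that specify each floral organ. Neither the deposited table nor the reference table pairs the identifiers with names, so a name is printed only where published nomenclature and the reference table place a gene of that name at a matching rank on the same chromosome. TMF has no entry in the reference table, and its name rests on published nomenclature alone. Names were sought only for the 52 genes of the lists of regulators and markers described below. In this way 2 of the 32 genes were named, AGL6 and CRCB, and the other 30 are given by identifier with no role.

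Most of the 32 genes were lowly expressed. Their mutant means ran from 10.8 to 3497 with a median of 30.5, against 217 over the 17769 genes with a mutant mean of at least 10. Their wild-type means ran from 0 to 732 with a median of 3.55. In all, 22 genes had a mutant mean under 50, 4 lay between 50 and 100, and 6 reached 100. In 18 genes the wild-type libraries together held fewer than 20 reads. In bulk samples such as these, fewer cells of a type and less RNA per cell cannot be told apart.

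**Figure D1:**
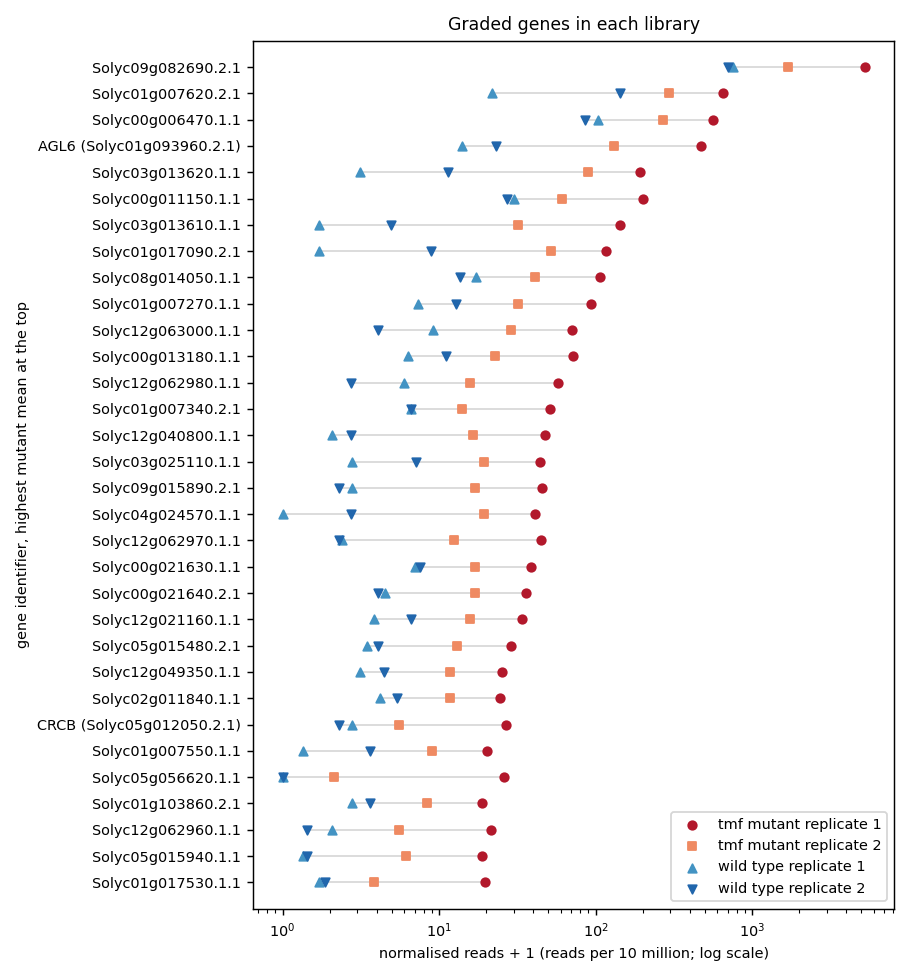
Level of each of the 32 graded genes in each library, as normalised reads plus 1 on a log scale, 1 row per gene and 1 symbol per library, with a grey line from the lowest to the highest library. In every row mutant replicate 1 lies to the right of mutant replicate 2, which lies to the right of both wild-type libraries, as the selection requires; Solyc09g082690.2.1 is the most abundant gene, with a mutant mean of 3497.

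The steps were of similar size on either side of mutant replicate 2. Both were cut at the same 2-fold threshold, so this similarity is only a description of the selected genes. On the log2(value + 1) scale, mutant replicate 1 exceeded mutant replicate 2 by a median of 1.41, within a range of 1.04 to 3.6. Over all 17769 genes with a mutant mean of at least 10 the same difference had a median of -0.09, with 5th and 95th percentiles of -1.11 and 0.64. The step from the higher wild-type library to mutant replicate 2 had a median of 1.4 among the 32 genes and ran from 1.01 to 2.97. The first of these steps was the larger in 13 genes and the second in 19. Taken alone, the step between the mutant libraries was met by 364 of the 17769 genes and the step above the wild type by 463. The same thresholds were also counted in other orders of the libraries, as a description and not a test. With mutant replicate 2 as the highest library, 7 genes met them, against 41 with mutant replicate 1 highest. With the genotypes interchanged, 2 genes were graded with wild-type replicate 1 highest and 4 with wild-type replicate 2 highest.

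**Figure D2:**
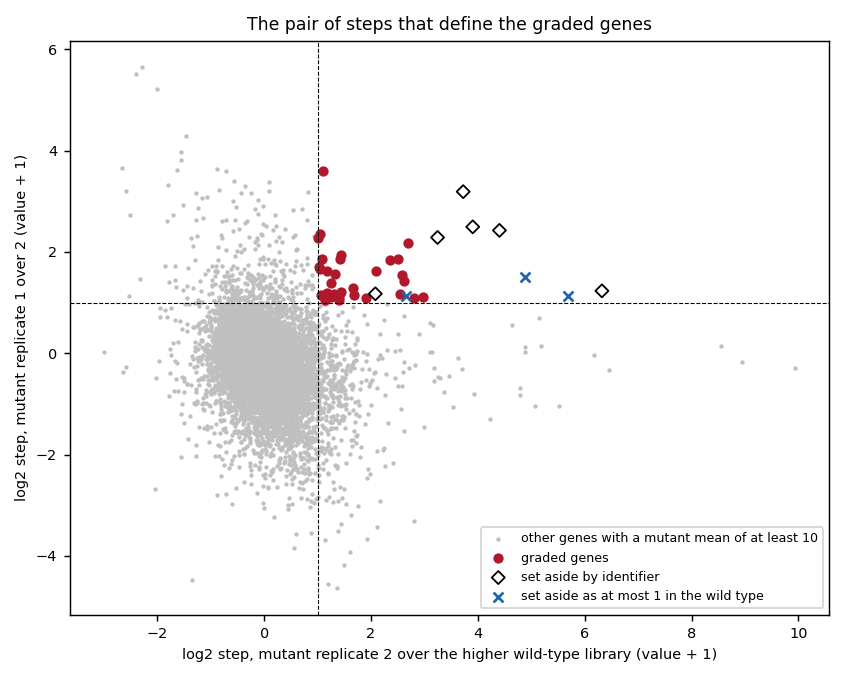
Each point is a gene with a mutant mean of at least 10, placed by its log2 step of mutant replicate 2 over the higher wild-type library (horizontal) and of mutant replicate 1 over mutant replicate 2 (vertical), after 1 was added to each value; dashed lines mark the 2-fold thresholds. The 32 graded genes lie close to the corner of the thresholds, with a median of 1.4 on the horizontal and 1.41 on the vertical axis, and 5 of the 6 genes set aside by identifier reach farther along the horizontal axis than any of them.

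Reads are few for many of these genes, and this limits how firmly each step is placed. From the read counts, the exact 95% interval of the ratio of mutant replicate 1 to mutant replicate 2 lay above 1 in all 32 genes and above 2 in 14. The interval of the ratio of mutant replicate 2 to the higher wild-type library lay above 1 in 29 genes and above 2 in 12. Both intervals lay above 2 in 4 genes. These intervals cover counting error in the libraries at hand and not the spread between plants or pools. The same ratios were selected to be high, so intervals above 1 are no separate support for either step. The 5 genes nearest inside the first threshold had ratios of 2.06 to 2.15 and the 5 nearest outside it 1.87 to 1.96. At the second threshold the nearest genes had ratios of 2.01 to 2.08 inside and 1.86 to 1.9 outside, and at the mean they had 10.8 to 13 inside and 5.71 to 7.62 outside.

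AGL6 (Solyc01g093960.2.1, on chromosome 1) is one of the 2 named genes. It encodes a MADS-box factor of the AGAMOUS-LIKE 6 clade, sister to SEPALLATA, which acts in flowers and in tomato restrains fruit growth before pollination. AGL6 had 474 and 130 normalised reads in mutant pools, against 13.1 and 22.2 in wild-type pools. Every library held AGL6 reads, from 37 in wild-type replicate 1 to 933 in mutant replicate 1. That the lower mutant library lay above the higher wild-type one was required by the selection. Mutant pools averaged 302 ± 243 and wild-type pools 17.6 ± 6.45 (SD, n = 2 each), a ratio of means of 17.1. The ratio of mutant replicate 1 to mutant replicate 2 was 3.65, with an exact 95% counting interval of 3.15 to 4.24, and that of mutant replicate 2 to wild-type replicate 2 was 5.86, with an interval of 4.31 to 8.1.

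CRCB (Solyc05g012050.2.1, on chromosome 5) is related to CRABS CLAW, a YABBY-family regulator that in Arabidopsis shapes carpels and nectaries. CRCB had 25.9 and 4.56 normalised reads in mutant pools, against 1.77 and 1.31 in wild-type pools. Mutant replicate 1 alone stood high, since mutant replicate 2 held 8 CRCB reads and the wild-type libraries 5 and 3. Its ratio of mutant replicate 2 to wild-type replicate 1 was 2.58, with a counting interval of 0.74 to 10, so that this second step is not resolved at this depth. CRCA (Solyc01g010240.2.1), the other CRABS CLAW-type gene, was not graded: it had 143 and 46.2 in mutant pools, against 31.4 and 86.6 in wild-type pools, so the genotypes overlapped.

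The 6 genes set aside by identifier followed the same order of libraries as AGL6, and 5 of them had a larger step above the wild type. AN (ANANTHA), an F-box gene needed for floral identity, was 9.3 times as high in mutant replicate 1 as in mutant replicate 2. The SEPALLATA-clade genes J2, TM5, TM29 and EJ2 had ratios of 5.68, 5.45, 4.96 and 2.35 between the same libraries. The FRUITFULL-type gene FUL2 had a ratio of 2.26. AGL6, at 3.65, lay between TM29 and EJ2. The ratio of mutant replicate 2 to the higher wild-type library was 116 for EJ2 and from 4.32 (FUL2) to 32.7 (TM5) for the other 5 genes, against 5.86 for AGL6. The 3 genes set aside for having at most 1 normalised read in the wild type were TPI, a B-class MADS-box gene of petals and stamens, Solyc04g019310.1.1 and Solyc08g014270.1.1. TPI was at 24.9 and 10.8 in mutant pools, against 0 and 0.87 in wild-type pools.

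**Figure D3:**
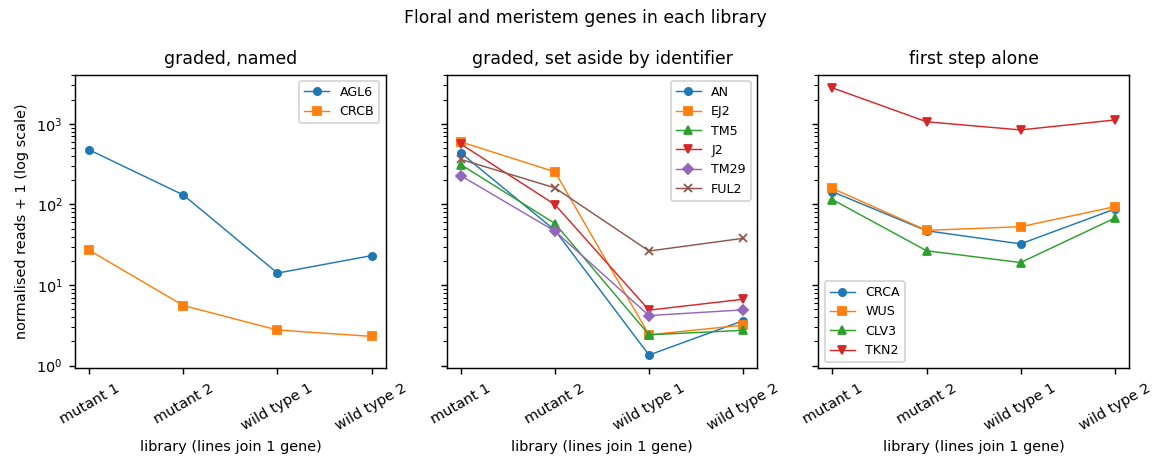
Normalised reads plus 1, on a log scale, in mutant replicates 1 and 2 and wild-type replicates 1 and 2, for the 2 named graded genes (left), the 6 graded genes set aside by identifier (middle) and 4 list genes that met the first step alone (right); lines join the values of 1 gene. AGL6 is highest in mutant replicate 1, at 474, and its wild-type values of 13.1 and 22.2 lie under both mutant values, whereas WUS, CLV3, TKN2 and CRCA have wild-type replicate 2 above mutant replicate 2.

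Among 6 lists of named regulators and marker genes, 10 genes met the full grading before any gene was set aside. The lists were chosen with earlier results of these data known. All 10 were in the floral lists or the carpel list. Of the 10, only AGL6, CRCB and Solyc05g056620.1.1 were kept in the graded set. In the list of 15 floral organ MADS-box genes, 11 had a mutant mean of at least 10, 6 of these met the first step, 8 the second and 6 both. Over the whole table the first step was met by 2.05% of genes with such a mean, the second by 2.61% and both by 0.231%. The 6 were EJ2, TM5, J2, TM29, TPI and AGL6, of which AGL6 alone was kept in the graded set. Because the lists were chosen with earlier results known, these counts and shares are a description and not a test. In the list of 12 inflorescence and floral meristem genes, 9 had a mutant mean of at least 10. Of these 9, 3 met both steps, namely AN, FUL2 and Solyc05g056620.1.1. In the list of 6 carpel, ovule and YABBY genes, CRCB alone met both steps. All 8 shoot meristem and boundary genes reached the mean, 3 met the first step and none the second. With 2.61% over the whole table, a count of 0 among 8 does not set the list apart. WUS, the stem cell organiser gene, had 157 and 46.7 in mutant pools, against 51.9 and 92.7 in wild-type pools. CLV3, the peptide signal that restrains WUS, had 114 and 25.7 in mutant pools, against 18 and 66.6 in wild-type pools, and the KNOX gene TKN2 had 2797 and 1062 in mutant pools, against 841 and 1117 in wild-type pools. None of the 4 BOP and ALOG genes met either step. For WUS, CLV3 and TKN2 the grade between the mutant libraries was present while mutant replicate 2 lay below wild-type replicate 2.

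The mutant libraries also differed in marker genes of leaf tissue. All 7 light-harvesting and Rubisco genes were read in every library, none met either step, and all 7 were lower in mutant replicate 1 than in mutant replicate 2. Their summed level was 17883 and 35860 in mutant pools, against 28019 and 33388 in wild-type pools. The summed level of the 8 shoot meristem and boundary genes was 6478 and 3953 in mutant pools, against 3744 and 4340 in wild-type pools, with mutant replicate 1 the higher mutant library for 7 of the 8. Over the whole table mutant replicate 1 was the higher in 40.2% of 17731 genes with a mutant mean of at least 10, so a lower value there is the commoner direction. Mutant replicate 1 thus had the lowest leaf sum and the highest meristem sum of the 4 libraries. Such sums are weighted to the most abundant genes, among them RBCS2 and TKN2, and single genes did not all follow them. TKN1 had 600 and 975 in mutant pools, against 651 and 923 in wild-type pools. The leaf gene Solyc02g070990.1.1 had 19.3 and 26.8 in mutant pools, against 15.9 and 18.3 in wild-type pools. The part of either sum in the grading was not tested.

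Outside the floral lists, the most abundant graded gene was Solyc09g082690.2.1. It had 5289 and 1706 normalised reads in mutant pools, against 758 and 705 in wild-type pools. Mutant pools averaged 3497 ± 2533 and wild-type pools 732 ± 37.5 (SD, n = 2 each), a ratio of 4.78. The wild-type libraries were close to each other at this gene, while the mutant libraries differed by a ratio of 3.1 (counting interval 2.98 to 3.23).

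Solyc01g007620.2.1 and Solyc00g006470.1.1 came next. Solyc01g007620.2.1 had 656 and 296 in mutant pools, against 20.8 and 141 in wild-type pools. Here the wild-type libraries also stood apart, with wild-type replicate 2 at 6.79 times wild-type replicate 1, so that its ratio of means of 5.86 rests on libraries that disagree in both genotypes. Solyc00g006470.1.1 had 562 and 271 in mutant pools, against 102 and 84.9 in wild-type pools. Solyc00g011150.1.1 had 199 and 60.4 in mutant pools, against 29.3 and 26.1 in wild-type pools, and Solyc08g014050.1.1 had 106 and 39.9 in mutant pools, against 16.2 and 12.6 in wild-type pools. In these 3 genes the wild-type libraries lay close together.

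The largest steps between the mutant libraries, in Solyc05g056620.1.1, Solyc01g017530.1.1 and CRCB, were found in genes with few reads. The next largest, in Solyc03g013610.1.1, rested on 282 and 54 reads in mutant replicates 1 and 2. Solyc05g056620.1.1 had 24.9 and 1.14 in the mutant, against no read in either wild-type library. That is 49 reads in mutant replicate 1 and 2 in mutant replicate 2, so this gene was in effect read in 1 library, and its mutant mean was at least 22.3-fold higher than the limit of 3 reads over the wild-type group. Solyc01g017530.1.1 had 18.8 and 2.85 in mutant pools, against 0.71 and 0.87 in wild-type pools, with 5 reads behind the second value. For Solyc05g056620.1.1, Solyc01g017530.1.1 and CRCB the counting interval of the second step reached below 1.

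The 5 largest steps above the wild type, on the log2(value + 1) scale, were 2.97 in Solyc03g013620.1.1, 2.81 in Solyc04g024570.1.1, 2.69 in Solyc03g013610.1.1, 2.62 in Solyc09g015890.2.1 and 2.58 in Solyc12g040800.1.1. No wild-type value of these 5 genes exceeded 10.4. Solyc03g013620.1.1 had 191 and 88.4 in mutant pools, against 2.12 and 10.4 in wild-type pools. Solyc04g024570.1.1 had 40.2 and 18.2 in mutant pools, against 0 and 1.74 in wild-type pools. Solyc12g040800.1.1 had 46.8 and 15.4 in mutant pools, against 1.06 and 1.74 in wild-type pools. In each of these 3 genes the step between the mutant libraries was smaller than the step above the wild type. Solyc01g017090.2.1 had 115 and 50.7 in mutant pools, against 0.71 and 7.83 in wild-type pools, where the libraries differed by 2.37 on the log2 scale. Both steps reached a ratio of 3 (value + 1) in 4 genes, namely AGL6, Solyc03g013610.1.1, Solyc12g062970.1.1 and Solyc05g015940.1.1. Solyc05g015940.1.1 had 17.8 and 5.13 in mutant pools, against 0.35 and 0.44 in wild-type pools, and so held few reads outside mutant replicate 1. The 7 graded genes not given elsewhere in the text were Solyc00g013180.1.1, Solyc01g103860.2.1, Solyc02g011840.1.1, Solyc03g025110.1.1, Solyc05g015480.2.1, Solyc12g021160.1.1 and Solyc12g049350.1.1. They had 17.8 to 70.7 in mutant replicate 1 and 7.41 to 21.7 in mutant replicate 2, against 1.77 to 10 over both wild-type libraries.

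Several graded genes lie beside one another in the identifier order, which in these identifiers follows position on the chromosome. In all, 8 of the 32 genes had another graded gene within the next 2 identifiers, in groups of 4 on chromosome 12, 2 on chromosome 3 and 2 in the sequence numbered chromosome 00, which holds scaffolds not placed on a chromosome. The count of graded genes per chromosome was 8 on chromosome 1, 7 on chromosome 12, 5 on chromosome 00, 4 on chromosome 5 and 3 on chromosome 3. Chromosome 9 held 2, chromosomes 2, 4 and 8 held 1 each, and chromosomes 6, 7, 10 and 11 held none. Before any gene was set aside, the counts on chromosomes 2, 3, 4, 5, 6, 8 and 12 were 3, 5, 2, 5, 1, 2 and 8. Of all genes with a mutant mean of at least 10, 12.8% were on chromosome 1, 6.36% on chromosome 12 and 0.73% on chromosome 00. Chromosomes 5 and 3 held 6.53% and 10.5% of them. Chromosomes 2, 4, 8 and 9 held 10.7%, 8.23%, 7.21% and 7.23%. Chromosomes 6, 7, 10 and 11, with none of the 32, held 8.78%, 7.29%, 6.58% and 7.02%. Because the treatment of reads that match several places is not given in the sources used here, genes that are near copies of each other may share reads and are not separate measurements. The stretches described next were picked after their values were seen.

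On chromosome 12 a run of 6 consecutive genes, from Solyc12g062950.1.1 to Solyc12g063000.1.1, was read mainly in mutant replicate 1. The nearest 4 or more identifiers on either side had no read in any library. Solyc12g063000.1.1 had 70.1 and 27.9 in mutant pools, against 8.12 and 3.05 in wild-type pools. Solyc12g062980.1.1 had 56.4 and 14.8 in mutant pools, against 4.95 and 1.74 in wild-type pools. Solyc12g062970.1.1 had 43.7 and 11.4 in mutant pools, against 1.41 and 1.31 in wild-type pools. Together with Solyc12g062960.1.1, at 20.3 and 4.56 in mutant pools, against 1.06 and 0.44 in wild-type pools, these were the 4 graded genes of the run. The remaining genes of the run shared the order of the mutant libraries without meeting the rule. Solyc12g062990.1.1 had 33.5 and 4.56 in mutant pools, against 0.35 and 2.18 in wild-type pools, and missed the second step with a ratio of 1.75. Solyc12g062950.1.1 had 9.15 and 1.71 in mutant pools, against 0.35 and 1.31 in wild-type pools.

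**Figure D4:**
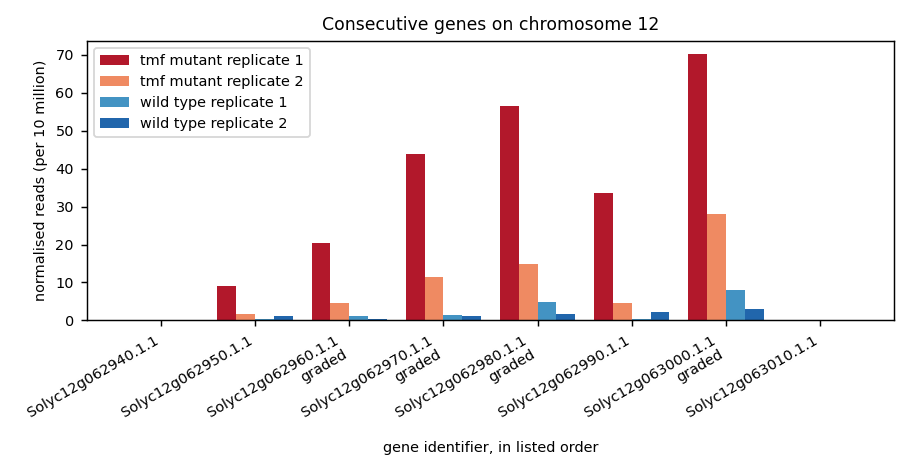
Normalised reads in each library (bars, from 0) for 8 consecutive identifiers on chromosome 12, with mutant replicates 1 and 2 left of wild-type replicates 1 and 2 at each gene. The 6 inner genes are highest in mutant replicate 1, up to 70.1, and the outermost identifiers have no read.

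On chromosome 3, Solyc03g013610.1.1 and its neighbour Solyc03g013620.1.1 were both graded. Solyc03g013610.1.1 had 143 and 30.8 in mutant pools, against 0.71 and 3.92 in wild-type pools, the largest mean difference among the 32 genes at 4.55 on the log2(value + 1) scale. In both genes wild-type replicate 2 exceeded wild-type replicate 1. Neither flanking gene was graded. Solyc03g013600.1.1 had 12.7 and 3.99 in mutant pools, against 4.24 and 2.61 in wild-type pools. It met the first step, with a ratio (value + 1) of 2.75, but its mutant replicate 2 lay below wild-type replicate 1. Solyc03g013630.2.1 had 148 and 147 in mutant pools, against 175 and 166 in wild-type pools, and met neither step.

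The pair on chromosome 00 had nearly equal values in mutant pools, while the first gene had the higher values in wild-type pools. Solyc00g021630.1.1 had 37.6 and 16 in mutant pools, against 6 and 6.53 in wild-type pools, and Solyc00g021640.2.1 had 35.1 and 16 in mutant pools, against 3.53 and 3.05 in wild-type pools. Of the 124 genes on chromosome 00 that had a mutant mean of at least 10 and were not graded, 31 met the first step alone (25%), against 1.82% of 17728 such genes over the whole table. The second step alone was met by 15 of the 124 (12.1%), against 2.38% over the whole table.

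On chromosome 1, 4 graded genes fell within 38 consecutive identifiers, from Solyc01g007270.1.1 to Solyc01g007640.2.1. Of these 38 genes, 28 had a mutant mean of at least 10, 20 met the first step and 5 the second. Mutant replicate 1 was the higher mutant library in 23 of the 28, and wild-type replicate 2 the higher wild-type library in 22. The graded Solyc01g007620.2.1 sits between a pair of far more abundant genes with like ratios between the libraries of each genotype. The step above the wild type was not alike. The ratio (value + 1) of mutant replicate 2 to the higher wild-type library was 2.08 for the graded gene. It was 1.16 for Solyc01g007610.2.1 and 0.66 for Solyc01g007630.2.1. Solyc01g007610.2.1 had 4880 and 2231 in mutant pools, against 360 and 1930 in wild-type pools. Solyc01g007630.2.1 had 14670 and 6138 in mutant pools, against 1410 and 9241 in wild-type pools, so that here mutant replicate 2 lay below wild-type replicate 2. In these 3 genes wild-type replicate 2 was 5.36, 6.79 and 6.56 times wild-type replicate 1, in the order of their identifiers.

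**Figure D5:**
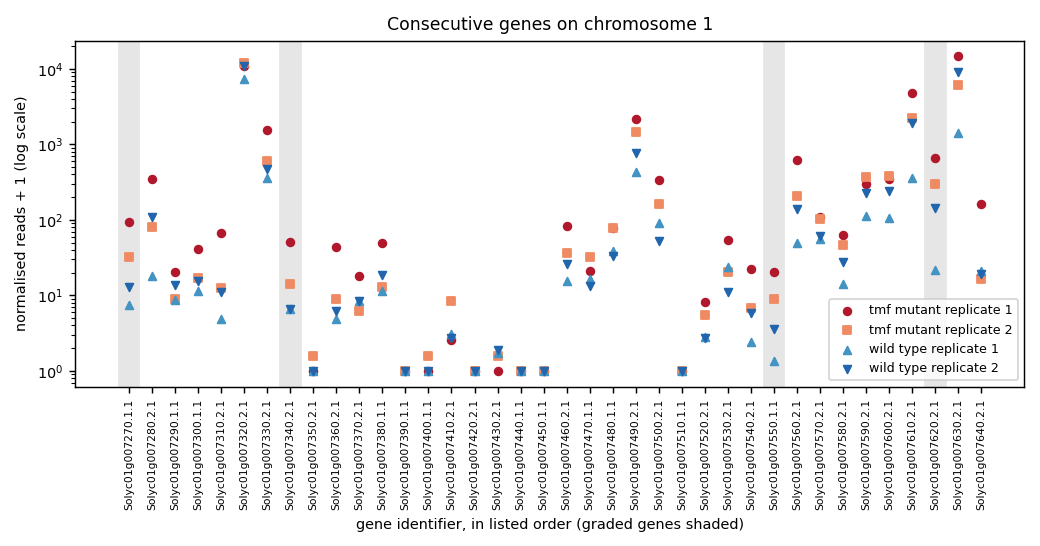
Normalised reads plus 1, on a log scale, in each library for 38 consecutive identifiers on chromosome 1, with the 4 graded genes shaded. Mutant replicate 1 (dark red circles) is above mutant replicate 2 in 23 of the 28 genes with a mutant mean of at least 10, while wild-type replicate 2 often lies near or above mutant replicate 2.

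The remaining graded genes of that stretch were less abundant. Solyc01g007270.1.1 had 92.5 and 30.8 in mutant pools, against 6.36 and 11.8 in wild-type pools. Solyc01g007340.2.1 had 50.3 and 13.1 in mutant pools, against 5.65 and 5.66 in wild-type pools, and Solyc01g007550.1.1 had 19.3 and 7.98 in mutant pools, against 0.35 and 2.61 in wild-type pools. A shorter stretch on chromosome 9 ended in the graded Solyc09g015890.2.1, at 44.7 and 16 in mutant pools, against 1.77 and 1.31 in wild-type pools. Of the 5 genes there with a mutant mean of at least 10, 4 met the first step, while the graded gene alone met the second.

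Over all graded genes, 54 listed genes were immediate neighbours that were not graded themselves, and 27 of these had a mutant mean of at least 10. In 6 of the 27 (22.2%) mutant replicate 1 exceeded mutant replicate 2, which exceeded both wild-type libraries, by any amount. Over the 17731 genes with such a mean, after the graded genes and those set aside by identifier were left out, the share with that order was 10.3%. The neighbours' median difference between the mutant libraries was 0.3 on the log2(value + 1) scale, against -0.09 over the same 17731 genes. Neighbours of genes in a run are neighbours of each other, so these 27 are not independent, and no test was made.

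The selection did not use the order of the wild-type libraries, since it took the higher of the 2. Wild-type replicate 2 was the higher in 20 of the 32 genes (62.5%), wild-type replicate 1 in 11, and 1 gene had no read in either. Over 20990 other genes within the graded genes' range of wild-type mean, wild-type replicate 2 was the higher in 55%. Most graded genes are low in the wild type, so they were also set beside other genes of low level. These had a wild-type mean above 0 and under 10, a range chosen after the values were seen. Wild-type replicate 2 was the higher in 18 of the 25 graded genes in that range (72%) and in 53.3% of 6830 others. The wild-type libraries differed by at least 2-fold, after 1 was added to each value, in 8 of those 25 genes (32%) and in 16.1% of the others. Levels still vary within that range, and no test was made. The largest differences between the wild-type libraries, on the log2 scale, were those of Solyc01g007620.2.1, Solyc01g017090.2.1 and Solyc03g013620.1.1, at 2.71, 2.37 and 1.88, each with wild-type replicate 2 higher.

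None of the 32 genes passed the test between genotypes over the whole table. Mutant and wild-type libraries were compared in 21437 genes with limma on log2(value + 1), where p-values measure only the spread between the 2 pools of a genotype. The fit placed 28 genes higher in the mutant (adjusted p under 0.05), or 0.131%. All 32 graded genes were in that fit, 0 were called, and all 32 had an unadjusted p under 0.05 with a positive difference, as did 4.67% of all genes tested. On read counts, the quasi-likelihood test of edgeR called 2 of the 32, AGL6 and Solyc03g013620.1.1, against 0.163% of genes tested, and DESeq2 called 18, against 0.709%. Since the selection used this same contrast, these counts add nothing about the genes. Without mutant replicate 2, the limma difference of AGL6 was 4.72 on the log2 scale. In that fit the wild-type pair alone gives the spread, the lone mutant library is assumed to vary like it, and the selection makes the library left out the lower mutant one for every graded gene. The lowest adjusted p values in limma were 0.057 for Solyc03g013620.1.1, with a difference of 4.45, and 0.0596 for AGL6, with a difference of 3.79. Of the lists, limma called EJ2, TM5 and J2 higher among the 14 tested floral organ genes and TMF lower among the 4 BOP and ALOG genes. It called none of the 10 tested inflorescence and floral meristem genes, the 5 tested carpel genes, the 8 shoot meristem genes or the 7 leaf genes. On the log2 scale the median difference was 3.63 for the floral organ list, 1.03 for the inflorescence list and 0.38 for the shoot meristem list. It was 0.29 for the carpel list, 0.26 for the BOP and ALOG list and -0.19 for the leaf list, against 0.04 over all genes tested.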

How the data were processed

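Messenger RNA of 2 pools of meristems per genotype was sequenced, after PicoPure extraction and oligo-dT selection per the labels' protocols. The deposited table gives 1 signal value per gene and library, and the values of every library sum to 10000000, so the authors scaled reads to a common total. Every value above 0 was a whole multiple of the smallest one in its library (100% within a relative tolerance of 1e-06), which returned the reads. Bowtie 0.12.5 and edgeR are named in the submitters' processing notes; for the genome build, annotation release, counting tool, strandedness and multi-mapping rule, the entry is "not given in the sources used here".

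The graded genes were found by fixed thresholds on the deposited values. The genes and lists were chosen with earlier results of these data known. Across all genes with a mean of at least 1, genotypes were compared with limma 3.58.1 in R 4.3.3 (mean-variance trend, log2(value + 1), genotype as the only term, two-sided, Benjamini-Hochberg threshold 0.05). This scale understates the change of low genes. The alternatives were edgeR 4.0.16 and DESeq2 1.42.0 on recovered reads, and the fits were tested on simulated data. Intervals are exact Clopper-Pearson intervals at 95% (SciPy 1.17.1), for counting error only, and PCR duplicates are counted as molecules.

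Of 52 list genes, 44 could be named: the reference table of RefSeq genes (assembly SLM_r2.1) held that name, a synonym or a published alias on the stated chromosome within 5 percentage points of relative order. Solyc05g056620.1.1, on the inflorescence list, failed this and is not named. The text names genes by level, by step size, by neighbourhood and by list membership, and the stretches of neighbours were picked after their values were seen. Sequences were not used here.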

Additional observations from a re-analysis of the deposited data

How the results depend on the processing

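The number of graded genes depended on the thresholds: it was 109 with a step of 1.5 and 4 with a step of 3, 14 with a pseudocount of 5, and 10 with a mutant mean of at least 50. It stayed within 1.5 times of 32 with a pseudocount of 0.1, a mutant mean of at least 5, TMM and RLE rescaling (29 and 30 genes, 26 of the 32 kept in each). With 1 wild-type library left out it ranged from 53 to 89 genes, since the maximum is then taken over 1 library; leaving out replicate 2 gave the higher count. No value was possible without a mutant library, as the rule needs both. The median step between the mutant libraries ran from 1.22 to 1.52, and was 1.52 with either rescaling. Rescaling by TMM or RLE moved the difference between the mutant libraries of every gene up by about 0.11 on the log2 scale.

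The count of graded genes called by limma was 0 and became 2 with edgeR, 18 with DESeq2, 1 with RLE rescaling (Solyc03g013620.1.1), 29 with the replicate block and 14 when the block was crossed, and ranged from 0 to 8 with 1 library left out, where the remaining library of that genotype borrows its spread from the other pair. The share of graded genes higher in wild-type replicate 2, 62.5%, was 59.4% with TMM or RLE rescaling and 68.2% with at least 10 wild-type reads. It was 72% with a wild-type mean above 0 and under 10, a range added after the data were seen. The count of all called genes, 46, became 214 with DESeq2, 19 with a mean of at least 10, 368 under that block and 219 when it was crossed, and ranged from 6 to 61 with 1 library left out, at 6 without either wild-type library. The cause of these changes was not tested. By construction, leaving out a library leaves fewer samples and a higher mean leaves fewer genes. Same-numbered libraries deviated from their genotype means with a correlation of -0.11, and no label states a shared batch, so neither pairing is taken as known; the crossed block was added after the data were seen.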
